A study of Mus musculus with 18 samples.

Results

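Cytosolic ribosomal proteins were taken as every gene whose mouse symbol is Rpl or Rps followed by a digit, with Rplp0, Rplp1, Rplp2 and Rpsa, and without the ribosomal protein kinases (symbols starting Rps6k) and symbols marked as pseudogenes. The rule used names only, and 84 of the 17178 genes with a probe met it. All 84 were among the 11884 genes bright enough to test, on the same filter as every other gene. They comprise 43 proteins of the large subunit, 31 of the small subunit, the 3 proteins of the acidic stalk, 6 paralogs that stand beside a main gene (Rpl3l, Rpl7l1, Rpl22l1, Rpl36al, Rpl39l and Rps27l), and Rps19bp1, a protein that binds a ribosomal protein and is caught by its name. RefSeq lists 95 symbols under the rule, and the other 11 have no probe here.

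The arrays measured whole bone marrow of female C3H mice, an inbred strain for which the labels name no genetic change, at 1 week and at 8 weeks of age. At each age 1 group was left unirradiated and 2 groups received 2 Gy of gamma rays at 0.6 Gy per minute and were sampled 6 h or 24 h later. Each of the 6 groups holds 3 arrays, and the design text counts 3 mice per group. The labelled tissue carried its defining markers: Alas2 (erythroid cells), Mpo and Ngp (early and late granulocytes), Rag1 (early B cells) and C1qa (macrophages) were each detected on all 18 arrays. Control replicate 2 at 1 week stands apart, with skeletal muscle markers (10 genes) summing to 573 times the array's 75th percentile, against at most 22 on any irradiated array, and cartilage markers (6 genes) at 280 against at most 5.42. Counts of members called in comparisons that use it are given with and without it.

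The cytosolic ribosome makes nearly all cellular protein. Its proteins are needed in matched amounts, so their genes tend to be expressed together and are among the brightest in any growing cell. Many of their mRNAs begin with a cytosine and a run of pyrimidines, the terminal oligopyrimidine or TOP tract, through which mTOR signalling controls their translation. Bone marrow is sensitive to their dosage: loss of 1 copy of Rps19, Rpl5 or Rpl11 causes Diamond-Blackfan anaemia, and free Rpl5 and Rpl11 bind Mdm2 and stabilise p53, the factor that radiation activates.

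Levels are log2 signal minus the array's own 75th percentile over all probes, so 0 lies at that percentile, and levels of different probes are not compared. A difference is the difference of 2 group means on that scale, given ± its standard error from a limma fit to all 18 arrays, and it is called when its adjusted p (Benjamini-Hochberg over 11884 genes) is under 0.05. Most members were bright: the brightest probe of every member was well above background on all 18 arrays and none was saturated. Their probes together gave 8.47 to 9.67% of all signal on an array. In whole marrow, fewer cells of a type and less RNA per cell cannot be told apart.

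At 6 h after irradiation most of the called ribosomal protein genes were lower, at both ages. In 1-week marrow 40 of 84 fell (47.6%) and 6 rose, where 26.3% of all genes tested fell and 25.5% rose. The median member stood at -0.16, against 0 for all genes. Without control replicate 2, the array with muscle markers, 31 fell and 6 rose, with a median of -0.15. In 8-week marrow 27 of 84 fell (32.1%) and 6 rose, against 22.1% and 23.9% of all genes, with a median of -0.11 against 0.02. The falls were small, mostly under 0.4 on the log2 scale. They were spread over both subunits: at 1 week 21 of 43 large-subunit and 14 of 31 small-subunit genes fell, and at 8 weeks 14 and 10. Under quantile normalization the direction was kept and the 8-week count grew to 51 lower and 3 higher.

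The share of array signal carried by the members' probes scales each array by its own total signal, so it also depends on all other probes. It gave the same direction at 6 h. At 1 week it was 9.53, 9.57 and 9.67% on the control arrays, 8.98, 8.61 and 9.01% at 6 h, and 9.67, 9.5 and 9.31% at 24 h. At 8 weeks it was 9.18, 9.20 and 9.34% in controls, 8.48, 8.47 and 8.61% at 6 h, and 9.32, 9.54 and 9.22% at 24 h. The 6 h arrays lay below all control arrays at both ages, while the 24 h arrays overlapped the controls. The share thus did not show the higher levels fitted at 24 h in 8-week marrow, where 56 of 84 members were called higher. Arrays lie on 5 slides, and for the 6 h comparison only 1 slide at each age holds both groups, with 1 array of each. The median member difference there was -0.08 at 1 week and -0.07 at 8 weeks, with 56 of 84 members below 0 in each. The medians of all genes there were -0.01 and 0.04.

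**Figure D1:**
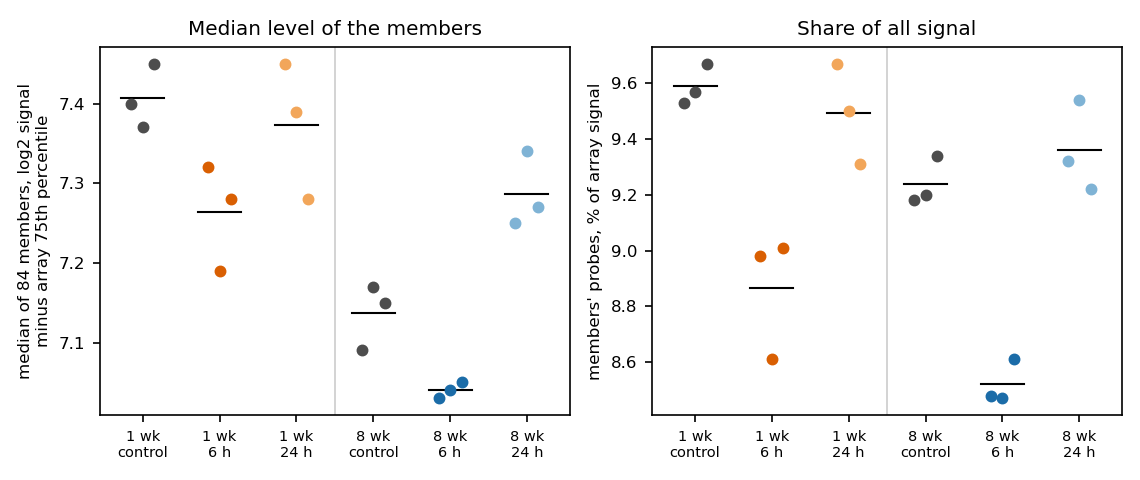
Median log2 level of the 84 members (left) and the percent of all array signal in their probes (right), 1 point per array and a line at the mean of 3, for control, 6 h and 24 h groups at 1 and 8 weeks. Shares at 6 h run from 8.61 to 9.01% at 1 week and from 8.47 to 8.61% at 8 weeks, below the controls of the same age; the 24 h rise of the median at 8 weeks is reversed by quantile normalization.

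Rps10, a small-subunit protein mutated in some families with Diamond-Blackfan anaemia, shows the common course. Its level was 6.72, 6.73 and 6.62 in 1-week controls, 6.37, 6.37 and 6.35 at 6 h, and 6.64, 6.60 and 6.40 at 24 h. At 8 weeks it was 6.27, 6.33 and 6.26 in controls, 5.96, 5.88 and 5.98 at 6 h, and 6.33, 6.39 and 6.43 at 24 h. The 6 h arrays were the lowest at each age, with no overlap with controls. It fell by 0.33 ± 0.06 at 1 week (adjusted p = 0.000184) and by 0.35 ± 0.06 at 8 weeks (adjusted p = 0.000168), about 1.25-fold and 1.27-fold.

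Rpl14, a large-subunit protein with a dimmer probe, fell at 6 h at both ages and came back by 24 h only at 8 weeks. Its level was 2.59, 2.55 and 2.78 in 1-week controls, 1.92, 2.10 and 2.18 at 6 h, and 2.29, 2.14 and 2.01 at 24 h. At 8 weeks it was 2.14, 2.23 and 2.12 in controls, 1.87, 1.84 and 2.02 at 6 h, and 2.40, 2.52 and 2.41 at 24 h. At 1 week all irradiated arrays lay below all controls, and at 8 weeks the 24 h arrays lay above them. The differences were -0.57 ± 0.08 and -0.49 ± 0.08 at 1 week (adjusted p = 3.47e-05 and 0.000262), and -0.26 ± 0.08 and 0.28 ± 0.08 at 8 weeks (adjusted p = 0.0209 and 0.0104). Tested directly between the ages, the 24 h response differed (0.77 ± 0.12, adjusted p = 0.000129) and the 6 h response did not pass.

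Among other falls at 6 h in 1-week marrow were Rpl31 (-0.36), Rpl18 (-0.35), Rpl37 and Rps26 (-0.34 each), and 3 members outside the standard set of subunits. Rpl36al, a retrocopy of Rpl36a, fell by 0.50 ± 0.06 (adjusted p = 4.88e-06). Rps19bp1 fell by 0.54 ± 0.08 (adjusted p = 2.04e-05), and Rpl7l1, a paralog of Rpl7, fell by 0.43 ± 0.06 (adjusted p = 3.56e-05). All 3 fell at 8 weeks too, by 0.33, 0.40 and 0.23. The parent genes Rpl36a (-0.11 ± 0.05, adjusted p = 0.0786) and Rpl7 (0.02 ± 0.06, adjusted p = 0.837) did not pass the test at 1 week on their brightest probes, and the difference from their copies was not tested. Other probes of these genes stood lower, at -0.23 and -0.24 for Rpl7 and at -0.13 and -0.29 for Rpl36a.

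Of the 40 members that fell at 1 week and the 27 that fell at 8 weeks, 24 are shared, which is 60% of the first list and 88.9% of the second. These 2 comparisons have no array in common. The same overlap over all genes was not counted, so the shares are not read as particular to the members. Across the 77 subunit and stalk genes the 6 h differences at the 2 ages correlated at r = 0.75, and across all 11884 genes at r = 0.52. Genes are not independent replicates, so the values are descriptions. Of the 8 members known to act on Mdm2 or p53 when free, 2 fell and 1 rose at each age, which for the falls is near the share of all genes: Rpl5 fell by 0.28 and 0.23, Rpl26 fell by 0.20 and 0.19, and Rps27l rose. Rpl11 (-0.08 at 1 week and 0 at 8 weeks), Rps14 (-0.06 and -0.07) and Rpl23 (-0.08 and -0.07) did not pass the test. Of the 18 Diamond-Blackfan anaemia genes among the members, 11 fell and 0 rose at 1 week. There 47.6% of all members and 26.3% of all genes fell. At 8 weeks 7 fell and 1, Rps19 on a dim probe, rose, where 32.1% of members and 22.1% of all genes fell.

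**Figure D2:**
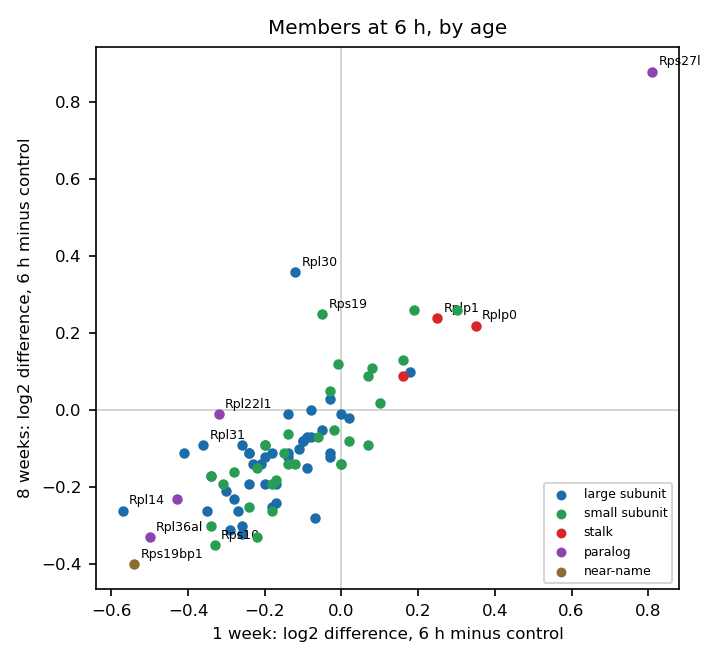
Log2 difference of 6 h minus control at 1 week (horizontal) and 8 weeks (vertical) for 82 members, coloured by class; Rpl39l (-0.33 and 1.12) and Rpl3l (-1.88 and -0.88) lie outside the plotted range. Most points sit in the lower left, Rps27l in the upper right at 0.81 and 0.88, and the stalk proteins on the positive side on this scale; under quantile normalization Rplp2 at 1 week is at -0.04.

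The start of the gene was compared because many of these mRNAs share one. RefSeq promoter windows (GRCm38.p6, 250 bases before to 50 after the annotated start) were found for 64 of 84 members by symbol, using the first listed start. The lines below give 10 bases before and 20 from the start for members that the results turn on, 5′ to 3′, and capitals mark the longest run of C and T touching the 5 bases on either side of the start. Rps10 (chr17:27635225-27635254, minus strand), Rpl14 (chr9:120571507-120571536, plus strand) and Rpl15 (chr14:18270967-18270996, minus strand) fell at 6 h at both ages; Rplp2 (chr7:141447641-141447670, plus strand) and Rplp0 (chr5:115559457-115559486, plus strand) did not fall.
Rps10: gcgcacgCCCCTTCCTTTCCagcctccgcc
Rpl14: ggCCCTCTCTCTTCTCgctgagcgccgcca
Rpl15: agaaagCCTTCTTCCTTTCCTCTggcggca
Rplp2: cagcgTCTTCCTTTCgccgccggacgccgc
Rplp0: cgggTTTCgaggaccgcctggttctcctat
Rps10, Rpl14, Rpl15 and Rplp2 begin in such a run although Rplp2 was called higher at 1 week, and the marked run of Rplp0 has only 4 pyrimidines and lies before the annotated start.

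A run of at least 8 pyrimidines reaching the 5 bases on either side of the start was found in 21 of 64 members (32.8%). Among 27025 promoters of all genes it was found in 9.3%. Such a run need not cover the start itself. A C at the annotated start followed by 4 pyrimidines stood in 12 of 64 members (18.8%) and in 2.49% of all promoters. The motif CCGGAAG, bound by ETS-family factors, was present on either strand of the 300-base window in 25 of 64 members (39.1%) and in 9.12% of all promoters. These features are thus more frequent among the members' windows. Inside the family, members with and without the run had similar medians at 6 h. At 6 h in 1-week marrow 12 of the 21 members with the run fell and 2 rose (median -0.17), and 19 of the 43 without it fell and 2 rose (median -0.15). At 8 weeks the medians were -0.14 and -0.11. At 24 h in 8-week marrow 12 of 21 with the run and 34 of 43 without it were called higher (medians 0.18 and 0.23). The difference between these sets was not tested. An annotated start can miss the true one by several bases, so an absent run says only that these letters are not there.

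The stalk proteins and Rps27a were among the few members called higher at 6 h. Rplp0, Rplp1 and Rplp2 form the flexible stalk that recruits elongation factors, and Rps27a is made as a fusion with ubiquitin. Rplp1 was at 9.07, 9.24 and 9.01 in 1-week controls, 9.53, 9.28 and 9.27 at 6 h, and 9.47, 9.32 and 9.51 at 24 h; at 8 weeks it was at 9.03, 8.93 and 9.10, then 9.21, 9.28 and 9.29, then 9.31, 9.38 and 9.31. Every irradiated group lay above its controls without overlap. The rises were 0.25 ± 0.08 and 0.33 ± 0.08 at 1 week (adjusted p = 0.0109 and 0.00333) and 0.24 ± 0.08 and 0.31 ± 0.08 at 8 weeks (adjusted p = 0.0181 and 0.00239).

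Rps27a was called higher in the same 4 comparisons, by 0.30 and 0.30 at 1 week and 0.26 and 0.35 at 8 weeks. Rplp0 was called higher in 3 of 4 (0.35, 0.24 and, at 24 h in 8-week marrow, 0.37) and stood at 0.22 at 6 h in 8-week marrow (adjusted p = 0.0528). Rplp2 was called higher in the same 3 (0.16, 0.19 and 0.21). These rises depend on scaling: under quantile normalization Rplp1 was at 0.04, 0.15, 0.12 and 0.11 with no call, Rplp2 turned to -0.04 at 6 h in 1-week marrow and -0.01 at 24 h in 8-week marrow, and Rps27a kept its 1-week calls only (0.27 and 0.26). A second, dimmer probe of Rplp0 gave -0.04, -0.05, -0.15 and 0.20 in the 4 comparisons, so the 2 probes of that gene disagree.

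Single arrays also decide several of these calls. Rps27a lost its call at 6 h in 1-week marrow without control replicate 1 (0.25, adjusted p = 0.0575) or 6 h replicate 1 (0.23, adjusted p = 0.0691). Rplp1 lost it there without control replicate 3 (0.20) or 6 h replicate 1 (0.17). At 6 h in 8-week marrow Rplp1 lost it without control replicate 2 (0.19) or 6 h replicate 2 (0.23), and Rps27a when any 1 of 4 arrays (control replicates 1 and 2, 6 h replicates 2 and 3) was left out (0.18 to 0.25). All of these values stayed above 0. Rplp0 at 24 h in 1-week marrow was at the threshold (adjusted p = 0.0455) and lost its call when any 1 of 11 arrays was left out, with values from 0.18 to 0.27.

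Partners of the ribosome that the naming rule leaves out were read beside the members. Fau encodes a small-subunit protein fused to a ubiquitin-like protein, and Rack1 is a scaffold on the small subunit. Neither passed the test at 6 h at either age, with values from 0.08 to 0.13. Both were called higher at 24 h in 8-week marrow, Fau by 0.27 ± 0.06 and Rack1 by 0.34 ± 0.06 (adjusted p = 0.00163 and 0.000324).

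Rps27l, the paralog of Rps27 and a known direct target of p53, rose in all 4 irradiation comparisons, and among members called higher Rpl39l alone rose more in any of them. Its level was 5.43, 5.46 and 5.48 in 1-week controls, 6.37, 6.10 and 6.33 at 6 h, and 6.08, 5.96 and 5.82 at 24 h. At 8 weeks it was 5.27, 5.27 and 5.36 in controls, 6.09, 6.14 and 6.29 at 6 h, and 6.00, 6.14 and 6.12 at 24 h. No irradiated array overlapped a control. The rises at 1 week were 0.81 ± 0.08 at 6 h and 0.50 ± 0.08 at 24 h (adjusted p = 4.06e-07 and 0.000102), or 1.75-fold and 1.41-fold. At 8 weeks they were 0.88 ± 0.08 and 0.79 ± 0.08 (adjusted p = 3.11e-07 and 3.21e-07), or 1.84-fold and 1.73-fold, and both were still called under quantile normalization at 0.83 and 0.60.

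From 6 h to 24 h Rps27l fell by 0.31 ± 0.08 at 1 week (adjusted p = 0.00444) and was at -0.09 ± 0.08 at 8 weeks (adjusted p = 0.373). The 24 h response was larger at 8 weeks by 0.29 ± 0.11 (adjusted p = 0.0391), a call lost when any 1 of 9 arrays was left out (0.23 to 0.31) and under quantile normalization (0.15). Rps27 itself was at -0.01, 0.03 and 0.12 in the first 3 comparisons with no call. At 24 h in 8-week marrow it was called at 0.15 ± 0.06 (adjusted p = 0.0441), a value that quantile normalization turned to -0.14.

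The starts of these 2 paralogs and of the next pair are shown because the members of each pair moved differently: Rps27 (chr3:90213629-90213658, minus strand), Rps27l (chr9:66946076-66946105, plus strand), Rpl39 (chrX:37085203-37085232, minus strand) and Rpl39l (chr16:10170218-10170247, plus strand), with capitals as above.
Rps27: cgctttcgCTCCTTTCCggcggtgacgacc
Rps27l: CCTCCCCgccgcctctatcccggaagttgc
Rpl39: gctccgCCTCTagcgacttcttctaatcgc
Rpl39l: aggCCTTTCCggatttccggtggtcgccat
Rps27 starts inside its pyrimidine run, whereas the run of Rps27l lies before the annotated start.

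Rpl39l, a retrocopy of Rpl39 best known from male germ cells, changed more than any other member. Its level was -0.50, -0.70 and -0.84 in 1-week controls, -0.75, -1.24 and -1.03 at 6 h, and 0.05, -0.21 and 0.17 at 24 h. In 8-week controls it was far lower, at -3.31, -3.31 and -3.45, and it climbed to -1.99, -2.42 and -2.31 at 6 h and -0.76, -0.72 and -0.64 at 24 h. The 8-week arrays form 3 separate steps, the highest of which reaches the level of 1-week controls. The difference between the ages in controls was -2.68 ± 0.14 (adjusted p = 1.09e-10), or 6.41-fold lower at 8 weeks.

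After irradiation Rpl39l rose at 8 weeks by 1.12 ± 0.14 at 6 h (adjusted p = 1.12e-05) and by 2.65 ± 0.14 at 24 h (adjusted p = 2.27e-10), or 2.17-fold and 6.28-fold. At 1 week it was at -0.33 ± 0.14 at 6 h (adjusted p = 0.0534) and rose by 0.68 ± 0.14 at 24 h (adjusted p = 0.000976), or 1.60-fold. The response differed between ages by 1.45 ± 0.19 at 6 h and 1.97 ± 0.19 at 24 h (adjusted p = 0.000154 and 2.73e-06). The gene has a second probe that is not well above background on all arrays; the mean of both probes gives 1.79 at 24 h in 8-week marrow (adjusted p = 0.00169) and -1.73 between control ages, both still called. With that mean the calls at 6 h in 8-week marrow (0.92, adjusted p = 0.0854), at 24 h in 1-week marrow (0.25, adjusted p = 0.685) and for the 6 h response between ages (0.46, adjusted p = 0.636) were lost, and the 24 h response was 1.54 (adjusted p = 0.0471). Rpl39 was at -0.14, 0.04 and -0.01 in the first 3 comparisons with no call and at 0.24 ± 0.09 at 24 h in 8-week marrow (adjusted p = 0.0316), a call lost under 5 of 14 other ways of processing (0.02 under quantile normalization) and without control replicate 1 (0.17, adjusted p = 0.162), 24 h replicate 1 (0.24) or 24 h replicate 2 (0.23).

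**Figure D3:**
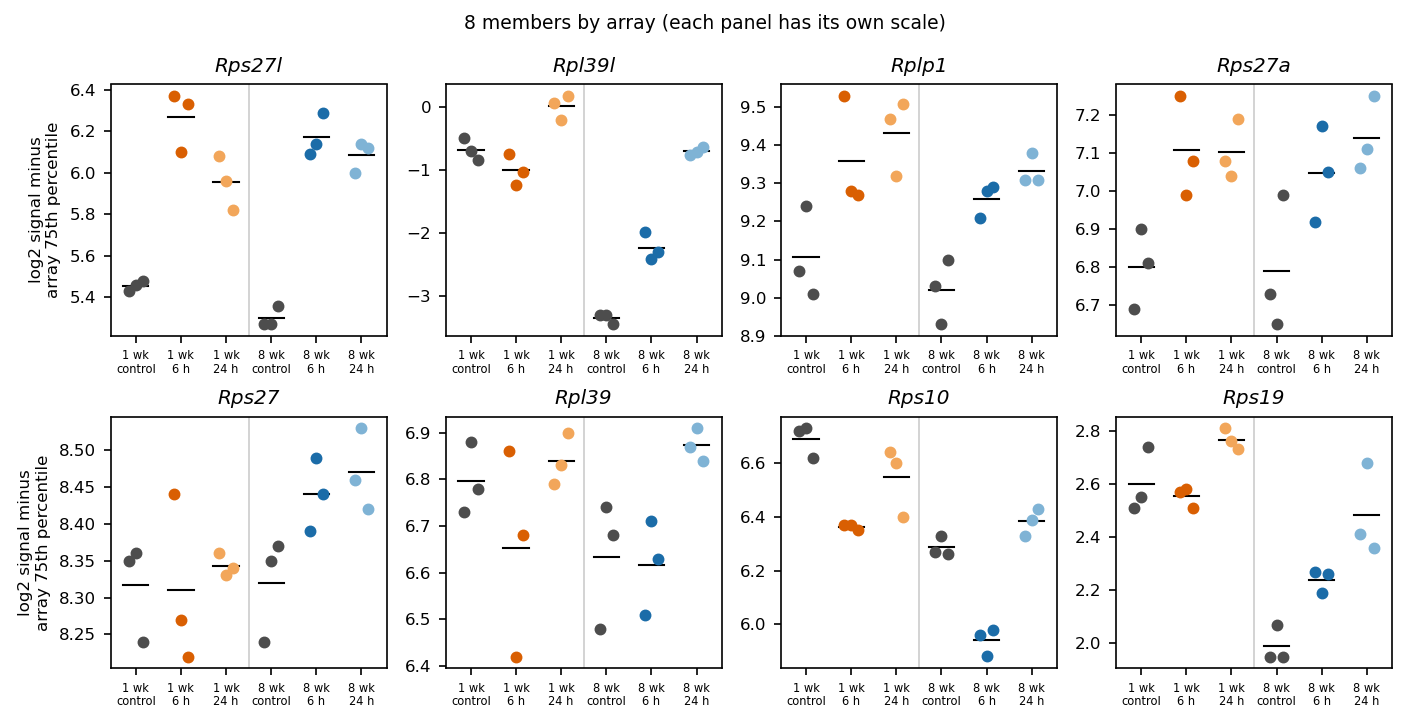
Log2 level minus the array's 75th percentile for 8 members, 1 point per array with a line at the mean of 3, in 6 groups; each panel has its own scale. Rps27l is higher on every irradiated array than on any control of its age, Rpl39l climbs from about -3.4 to about -0.7 over 24 h at 8 weeks, and Rps10 dips at 6 h; the rise of Rplp1 is not called under quantile normalization.

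Rpl22l1 and Rpl3l complete the paralogs. Rpl22l1, whose level in the cell is known to be held down by its parent Rpl22, fell by 0.32 ± 0.07 at 6 h in 1-week marrow (adjusted p = 0.0018), was at 0 at 24 h and at -0.01 at 6 h in 8-week marrow, and rose by 0.41 ± 0.07 at 24 h there (adjusted p = 0.000174). Rpl22 fell at 6 h at both ages, by 0.29 ± 0.06 and 0.31 ± 0.06, on its bright probe, and was at 0.05 at 24 h in 8-week marrow. A dim second probe of Rpl22 gave -0.22 and 0 at 6 h. Rpl3l, the striated-muscle form of Rpl3, was at -2.25, 1.37 and -2.26 in 1-week controls and between -3.45 and -1.70 on every other array. Its calls of -1.88 at 6 h and -1.78 at 24 h were lost without control replicate 2, the array with muscle markers, at -0.67 (adjusted p = 0.0586) and -0.57 (adjusted p = 0.129).

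At 24 h the counts differed between the ages. In 1-week marrow 9 of 84 members were called higher and 7 lower, fewer than among all genes (18.4% and 17.6%), and the median was 0.01 against -0.01. Without control replicate 1 or without 24 h replicate 3 only 9 in all were called. Without control replicate 2, 10 were called higher and 5 lower. Under quantile normalization 3 were higher and 28 lower, with a median of -0.10. The lower members were Rpl14, Rpl31 (-0.35 ± 0.06), Rpl27a (-0.27 ± 0.05), Rpl36 (-0.20), Rpl8 (-0.20), Rpl21 (-0.57, a dim probe) and Rpl3l. The call of Rpl21 (adjusted p = 0.0498) was lost when any 1 of 15 arrays was left out, with -0.30 (adjusted p = 0.272) without control replicate 3. The call of Rpl8 was lost without control replicate 1 or 2 or 24 h replicate 2 or 3 (-0.20 to -0.14). The 9 higher members were Rpl39l, Rps27l, the 3 stalk proteins, Rps27a, Rps18, Rps23 and Rpl37a.

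In 8-week marrow at 24 h 56 of 84 members (66.7%) were called higher and 0 lower, against 38.3% and 19.5% of all genes, with a median of 0.20 against 0.12, but under quantile normalization 9 were higher and 13 lower and the median was -0.04. With the medians of all tested genes set equal, 30 were higher and 1 lower. That setting also moves the split over all genes, from 66.2% of called genes higher to 54.8%. Those higher were 28 of 43 large-subunit genes, 19 of 31 small-subunit genes, 3 of 3 stalk genes, 5 of 6 paralogs and Rps19bp1, and they included 12 of the 18 Diamond-Blackfan anaemia genes and 6 of the 8 that act on Mdm2. Besides Rpl39l and Rps27l the highest were Rps19 (0.49 ± 0.08, adjusted p = 4.76e-05), Rps12 (0.42 ± 0.09), Rpl22l1 (0.41 ± 0.07) and Rpl7l1 (0.38 ± 0.06). On the slide with both groups, 1 array of each, the median was 0.17 against 0.13 for all genes, and 70 of 84 members lay above 0.

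**Figure D4:**
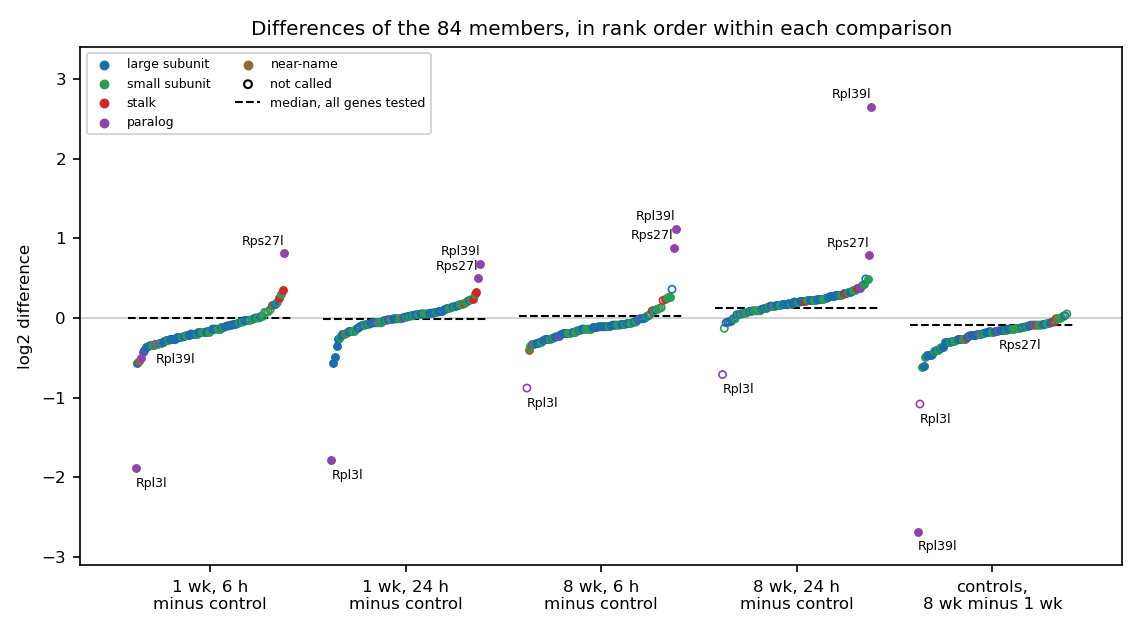
Log2 differences of the 84 members in 5 comparisons, in rank order, coloured by class, filled where called and open where not, with a dashed line at the median of all genes tested. At 24 h in 8-week marrow the members lie around a median of 0.20 on the scale used here and of -0.04 under quantile normalization; Rpl39l reaches 2.65 there and -2.68 between the control ages.

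The median change from 6 h to 24 h was above 0 at both ages under each of the 4 scalings. At 8 weeks 70 of 84 members (83.3%) rose from 6 h to 24 h and 0 fell, against 33% and 16.5% of all genes, with a median of 0.28 against 0.10. Under quantile normalization 35 rose and 2 fell, with a median of 0.14. On the 2 slides with both groups, 1 array of each, 82 and 83 of 84 members lay above 0. The medians were 0.28 and 0.36 against 0.06 and 0.13 for all genes. Rpl7l1 rose by 0.61 ± 0.06, Rpl14 by 0.53 ± 0.08, Rpl10a by 0.49 ± 0.06, Rps2 by 0.48 ± 0.05 and Rps10 by 0.44 ± 0.06.

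At 1 week 30 of 84 members rose from 6 h to 24 h and 1, Rps27l, fell, against 18.6% and 17.6% of all genes, with a median of 0.14 against 0. Without 6 h replicate 2 or without 24 h replicate 1 the calls dropped from 31 to 18 and 16. Rpl36al rose by 0.49 ± 0.06, Rpl7l1 by 0.36 ± 0.06 and Rpl24 by 0.31 ± 0.06. The stalk genes did not pass the test between 6 h and 24 h at either age on their brightest probes (-0.11 to 0.14). The dimmer probe of Rplp0 stood at -0.01 at 1 week and 0.35 at 8 weeks.

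Unirradiated marrow carried less ribosomal protein signal at 8 weeks than at 1 week, and the median of all genes was lower too. Of 84 members 48 were lower (57.1%) and 0 higher, against 37.5% and 27.4% of all genes, with a median of -0.17 against -0.09. Under quantile normalization 22 were lower and 3 higher and the medians of members and of all genes were both -0.05. On the slide with both groups, 1 array of each, the member median was -0.21 against -0.11 for all genes, and 75 of 84 members lay below 0. Without 1-week control replicate 2, the array with muscle markers, 37 were lower and 0 higher. Cell-type markers differed between the control ages as well, and their part in this result was not tested. Stroma and bone markers were lower at 8 weeks in 9 of 9 (median -2.33) and erythroid markers in 8 of 13 with 1 higher. Skeletal muscle markers were lower in 6 of 8, a count that includes control replicate 2 at 1 week (summed level 573). The lowest 1-week control sum was 7.82, within the 3.94 to 11.1 of 8-week controls. Late neutrophil markers were higher in 11 of 12 (median 1.12), early granulocyte markers in 5 of 5, macrophage markers in 8 of 11 with 1 lower, and B-cell precursor markers in 7 of 12 with 2 lower.

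Rps19, the gene most often mutated in Diamond-Blackfan anaemia, was the subunit gene with the largest age difference. It was at 2.51, 2.55 and 2.74 in 1-week controls and 1.95, 2.07 and 1.95 in 8-week controls, a difference of -0.61 ± 0.08 (adjusted p = 3.46e-06), and 13 pseudogenes carry its name. At 8 weeks it then rose to 2.27, 2.19 and 2.26 at 6 h (0.25 ± 0.08, adjusted p = 0.0145) and 2.41, 2.68 and 2.36 at 24 h (0.49 ± 0.08), against the direction of the family at 6 h. The 6 h call was lost without control replicate 1 or 3 (0.23 each). It was also lost with slide as a block and with another background correction (normexp), and the lowest value under any processing was 0.13. Rpl10a (-0.60 ± 0.06, adjusted p = 6.09e-07), Rpsa (-0.49 ± 0.14), Rpl14 (-0.47 ± 0.08), Rpl8 and Rpl3 (-0.46 each) followed. The stalk genes, Rps27a and Rps12 lay between -0.09 and -0.01 on their brightest probes with no call. The dimmer probe of Rplp0 stood at -0.49, so the probes of that gene disagree here too.

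The 24 h response was tested directly between the ages. In 32 of 84 members (38.1%) it was higher at 8 weeks and in 0 lower, against 28.5% and 13.5% of all genes, with a median of 0.19 against 0.11. This count falls to 11 under quantile normalization, 12 with equal medians and 13 with slide as a block, and to 19, 20, 20 and 21 without 24 h replicate 3 at 1 week, control replicate 1 or 24 h replicate 2 at 8 weeks, or control replicate 2 at 1 week. Rpl14 differed by 0.77 ± 0.12 (adjusted p = 0.000129), Rpl31 by 0.55 ± 0.09, Rpl27a by 0.53 ± 0.07 and Rpl10a by 0.47 ± 0.09. Across the 77 subunit and stalk genes this difference was larger in dimmer probes (r = -0.59 with mean level). The part of probe brightness in it was not tested. The 6 h response was higher at 8 weeks in 3 members and lower in 0, below the 10.5% and 8.09% of all genes. Of those, Rpl22l1 (0.31) and Rpl31 (0.26) lost their calls without most single arrays. Without control replicate 2 at 1 week, 1 member was called for the 6 h response.

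Ribosome biogenesis factors, which process ribosomal RNA and assemble the subunits, fell in 39 of 43 at 6 h in 1-week marrow (median -0.67) and in 33 of 43 at 8 weeks, with 1 higher (median -0.30). The same genes were nearly level at 24 h in 1-week marrow (1 higher, 3 lower, median -0.01), and 35 rose and 1 fell at 24 h in 8-week marrow (median 0.43). Lyar (-1.18 ± 0.08) and Nhp2 (-1.14 ± 0.08), a pseudouridylation factor, fell most clearly at 1 week, and Npm1 (0.77 ± 0.08) and Wdr12 (0.70 ± 0.07) rose at 24 h in 8-week marrow. Between control ages 40 of 43 were lower at 8 weeks (median -0.47), where 37.5% of all genes were lower. Under quantile normalization the median at 24 h in 8-week marrow was 0.38, with 32 higher and 1 lower, so this list kept its direction there where the members did not.

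RNA polymerase I genes, which transcribe ribosomal RNA, fell in 10 of 15 at 6 h in 1-week marrow with 2 higher. At 8 weeks 8 of 15 fell and 1 rose. Of all genes 26.3% fell and 25.5% rose at 6 h at 1 week, and 22.1% and 23.9% at 8 weeks. Mitochondrial ribosomal protein genes fell in 69 of 78 and 52 of 78 at 6 h (medians -0.45 and -0.26), and 52 of 78 rose at 24 h in 8-week marrow (2 fell, median 0.23; under quantile normalization 36 rose, 3 fell, median 0.14). The translation factors whose mRNAs also carry a TOP tract fell in 12 of 21 with 2 higher at 6 h in 1-week marrow, where 26.3% of all genes fell, and in 6 of 21 with 1 higher at 8 weeks, near the 22.1% of all genes. At 24 h in 8-week marrow 15 of 21 rose and 1 fell, or 4 and 2 under quantile normalization. Of all genes 38.3% rose and 19.5% fell there without that normalization. Of 31 translation-control genes 11 rose and 10 fell at 6 h in 1-week marrow, where 25.5% and 26.3% of all genes did. Ddit4 (1.39 ± 0.08) and Sesn2 (1.47 ± 0.10), both inhibitors of mTOR and p53 targets, rose there and at 8 weeks (0.94 and 1.12).

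**Figure D5:**
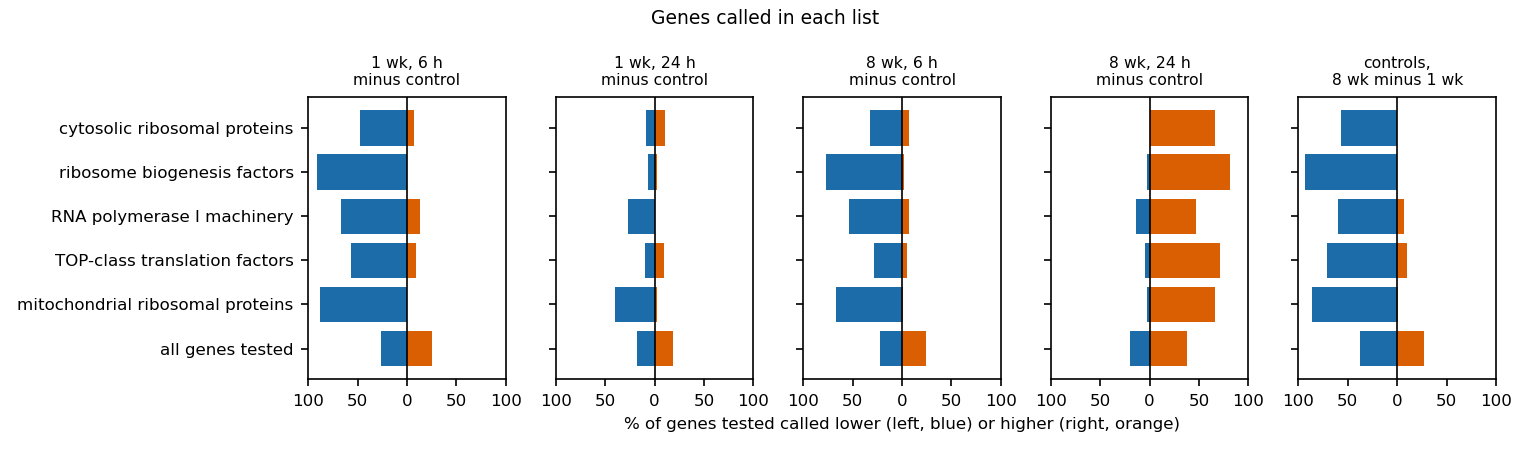
Percent of tested genes called lower (left, blue) or higher (right, orange) in 5 comparisons, for the 84 members, 4 related lists and all 11884 genes. The biogenesis factors show the longest bars at 6 h, with 39 of 43 lower at 1 week; at 24 h in 8-week marrow the members' bar of 56 higher becomes 9 higher and 13 lower under quantile normalization.

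Cell-type markers moved in the same arrays, and their part in the members' values was not tested. Over all genes 26.3% fell and 25.5% rose at 6 h in 1-week marrow, and 22.1% and 23.9% at 8 weeks. At 24 h 17.6% fell and 18.4% rose at 1 week, and 19.5% and 38.3% at 8 weeks. B-cell precursor markers fell in 11 or 12 of 12 in every irradiation comparison, and their summed level went from 337 to 379 in 1-week controls to 127 to 137 at 6 h and 94.3 to 103 at 24 h, with similar falls at 8 weeks. Late neutrophil markers rose in 11 or 12 of 12, and erythroid markers in 11 of 13 at 6 h in 1-week marrow and 9 of 13, with 1 lower, at 8 weeks. At 6 h in 1-week marrow 5 of 5 early granulocyte markers fell (median -0.61), and 8 of 11 macrophage markers fell and 1 rose. At 6 h in 8-week marrow the median early granulocyte marker was at -0.05, and 10 of 11 macrophage and 9 of 9 stroma and bone markers rose. At 24 h in 8-week marrow, where the members were higher, 5 of 5 early granulocyte markers rose (summed level 839 to 969 against 520 to 542 in controls), 11 of 11 macrophage markers rose and 9 of 9 stroma and bone markers rose (median 1.79). Of 13 erythroid markers 8 fell and 3 rose there, while their summed level was higher, at 3130 to 3340 against 2530 to 2650 in controls.

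How a member's probe was read also moves with the differences. The scanner's low-gain setting replaced the standard one for the brightest spots, in 66 members on all arrays, 7 on some and 11 on none. The 7 are Rpl10a (3 of 18 arrays), Rpl22l1 (15), Rpl24 (15), Rpl29 (1), Rpl30 (17), Rpl36al (2) and Rpsa (13). Their differences can compare spots read in both settings, and the part of that was not tested. At 6 h in 1-week marrow the median was -0.11 in the 66 and -0.36 in the 11, and across 77 subunit and stalk genes the difference rose with mean level at r = 0.57. In 28 members with more than 1 measured probe the dimmer probes stood lower than the brightest in 21 (median -0.24 against -0.16). The medians at 6 h were below 0 in both scans and in both kinds of probe, and lower in dim probes; at 8 weeks the 6 h medians were -0.11 in the 66 and -0.23 in the 11. For the 24 h response between the ages the median was 0.17 in the 66 and 0.52 in the 11, with 23 and 7 called higher. In 63 of 84 members at least 1 pseudogene shares the name, 319 in all, and whether a probe also reads such copies was not tested.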

How the data were processed

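Total RNA of 18 bone marrow samples was hybridised to 1-colour Agilent arrays. The authors' deposited scanner files give each spot an intensity from which Agilent Feature Extraction had already subtracted background (version 11.5.1 per the submitters' processing notes, 9.5.1.1 per the file headers). The deposited median spot and background intensity served an alternative only, and the other deposited columns used are spot flags of 0 or 1. The authors' deposited series matrix holds log2 values centred per probe; it matched log2 signal minus the array's 75th percentile for 41174 of 41252 probes (r at least 0.9999, column medians -0.17 to 0.25), and served as an alternative.

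Control spots and spots with an outlier flag (77 to 123 per array) were left out, spots of a probe averaged, log2 taken and the 75th percentile subtracted (signal 461.5 to 727.6). Between 51 and 62.1% of 41174 probes were well above background. RefSeq accessions gave symbols to 24844 probes, and the brightest probe stood for a gene. Genes well above background on all 3 arrays of a group entered 1 limma model (3.58.1; R 4.3.3) with all 18 arrays, an intensity trend and 9 comparisons. The number of arrays limits the precision. The fit was tested on simulated data.

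Members, lists, naming rule and tests were chosen with earlier results of these data known. The design text counts 3 mice per group without tying arrays to mice, so p-values measure the spread between arrays. Members named are up to 6 highest and 6 lowest called per comparison, a fixed set of well-known members, the paralogs and, from each pathway list, up to 3 with the smallest adjusted p; Rpl15, Rpl18, Rpl23, Rpl36, Rpl37, Rps2, Rps23 and Rps26 were named after their values were seen. Same-numbered arrays were not paired (45 pairs, r -0.27 to 0.32, median -0.015), so no block was used. Sequences are RefSeq's (GRCm38.p6). Some results are not reported here.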

Additional observations from a re-analysis of the deposited data

Results flagged for a closer look

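Responses that differed between the ages, by the interaction term of the limma fit, are listed here with their values. At 6 h after irradiation 3 of 84 members differed, all with a higher response at 8 weeks: Rpl39l by 1.45, Rpl22l1 by 0.31 and Rpl31 by 0.26 (adjusted p = 0.000154, 0.0471 and 0.0465). Under 7 other ways of processing 1 member was called. At 24 h 32 of 84 members differed, again all with a higher response at 8 weeks. The largest were Rpl39l (1.97), Rpl14 (0.77), Rpl31 (0.55), Rpl27a (0.53), Rps19bp1 (0.49) and Rpl10a (0.47), with adjusted p from 2.73e-06 to 0.00176.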

How the results depend on the processing

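Quantile normalization changed most. The count of members called became 31 at 24 h in 1-week marrow (3 higher, 28 lower), 22 at 24 h and 54 at 6 h in 8-week marrow, 37 from 6 h to 24 h in 8-week marrow, 25 between control ages and 11 for the 24 h response between ages. The medians became -0.10 (24 h) and -0.23 (6 h) at 1 week, -0.04 (24 h), -0.20 (6 h) and 0.14 (6 h to 24 h) at 8 weeks, -0.05 between control ages and 0.06 for the 24 h response. Called members that reversed under it were Rps18 (-0.15 at 24 h), Rpl37a (-0.02) and Rplp2 (-0.04 at 6 h) at 1 week, and at 24 h in 8-week marrow Rpl11 (-0.08), Rpl26 (-0.09), Rpl36a (0), Rpl36al (-0.03), Rpl7 (-0.07), Rplp2 (-0.01), Rps27 (-0.14) and Rps4x (-0.03). With the 75th percentile taken only over probes detected on every array, the 24 h response had 15 calls, the 6 h response 1, and the 8-week median from 6 h to 24 h was 0.23. With equal medians the 24 h response had 12 calls and a median of 0.09, 24 h at 8 weeks 31 calls and a median of 0.12, and 6 h to 24 h a median of 0.21. These scalings moved the share of called genes that were higher, over all genes at 24 h in 8-week marrow, from 66.2% to between 54.8 and 59.6%, for the 24 h response from 67.8% to between 53.3 and 61.2%, and from 6 h to 24 h at 8 weeks from 66.7% to between 54.3 and 61.2%.

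Without a filter on dim genes 8 members were called at 24 h in 1-week marrow, 21 for the 24 h response and 1 for the 6 h response. The 6 h response also had 1 call with the mean of all probes, only the groups compared, no intensity trend, or the deposited series matrix. Only the groups compared gave 18 calls from 6 h to 24 h at 1 week, slide as a block 13 for the 24 h response and a median of -0.04 for the 6 h response, and normexp, on median spot signals and chosen after seeing the data, 18 for the 24 h response. The replicate number as a block gave 1 call for the 6 h response; same-numbered arrays did not deviate together. The mean of probes put Rpl39l at -0.21 from 6 h to 24 h at 1 week. The dimmest measured probe, also chosen after seeing the data, put Rplp0 at -0.05 (24 h) and -0.04 (6 h) at 1 week and Rpl22 at -0.13 (6 h to 24 h), 0 (6 h) and 0.06 (control ages) at 8 weeks. The cause of these changes was not tested. A run with gene names taken from the array files was intended and not run.

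Leaving out 1 array at a time gave 32 to 48 calls at 6 h and 9 to 18 at 24 h in 1-week marrow, 24 to 35 and 41 to 58 at 8 weeks, 37 to 50 between control ages, 1 to 3 and 19 to 37 for the 6 h and 24 h responses, and 16 to 33 and 61 to 71 from 6 h to 24 h at 1 and 8 weeks. The medians of members ranged from 0.09 to 0.16 (1 week, 6 h to 24 h) and from 0.25 to 0.31 (8 weeks). Under other processing 219 counts and medians stayed close to their value and 33 moved; of the named members' values 1582 kept direction and call, 221 kept direction only and 17 reversed. The brightest probe of every member was well above background on all arrays. Some of these probes were still dim, with mean levels of -3.13 for Rpl21, -2.46 for Rpl3l and -1.33 for Rpl39l. The call of Rpl21 at 24 h in 1-week marrow was lost under normexp.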
